A study of Mus musculus with 8 samples.

Results

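ATF4 and unfolded protein response genes are the 42 mouse genes, chosen by symbol from a list of stress regulators and their targets, whose transcripts were followed here in neural stem cells. A row was found for 41 of them in a table of 45777 genes, and all 41 were among the 17644 genes with enough reads to be tested. The gene listed as Vldlr-ps had no row and is not analysed here.

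The cells were neural stem cells of the subventricular zone, a layer beside the brain's lateral ventricles where new neurons form in the adult mouse. Of the 8 samples, 4 are labelled as S1PR1-deficient, with the genotype given as deletion of S1pr1, the gene of a receptor for the lipid sphingosine-1-phosphate; the others are labelled as control, with the genotype given as wild type. Within each genotype, cells received high-density lipoprotein labelled ApoM-HDL or ApoM+HDL, for the protein apolipoprotein M that carries this lipid on the particle, with 2 samples for each of the 4 combinations. The labels used here name no Cre driver, age, dose or duration, and do not say whether replicates came from separate cultures or animals, so p-values measure the spread between these libraries, which may be technical.

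The libraries are coded GH, GV, CH and CV, each with the numbers 1 and 2. C was read as control, since it begins the titles of the control samples alone, and G was read as S1PR1-deficient by elimination. What H and V stand for is not given in the sources used here, so a difference between H and V has a direction in letters and none in preparations. The targeted gene did not separate the 2 genotypes as read. S1pr1 had 23.2 and 21.2 CPM in GH, 22.2 and 22.4 CPM in GV, 25.4 and 23.2 CPM in CH and 20.7 and 16.0 CPM in CV. The G and C libraries overlapped, and the log2 fold change of G over C was 0.08 (SE 0.081, adjusted p = 0.569). Which part of S1pr1 was deleted is not stated in the labels used here, and a count over the whole gene does not tell an altered transcript from an intact one. All differences are therefore given between libraries coded G and libraries coded C.

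Read totals ran from 39619305 to 45698186 counts per library. Levels are counts per 1000000 counts (CPM), scaled by the TMM method, and a gene is called changed where its adjusted p, from edgeR's quasi-likelihood test with Benjamini-Hochberg adjustment over the 17644 genes, was under 0.05. The share of counts in the small RNAs 7SL, 7SK and RPPH1 was 3.215% and 3.193% in GH, 1.919% and 2.221% in GV, 4.467% and 4.127% in CH, and 4.833% and 4.075% in CV. The summed level of 9 neural stem cell markers was 5460 to 5870 CPM in G libraries and 6210 to 6290 CPM in C libraries, with Gfap under 1 CPM in every library. Fabp7 averaged 1515 CPM in G and 1876 CPM in C, and Nes 672 CPM in G and 817 CPM in C, whereas Sox2 averaged 118 CPM in G and 113 CPM in C, and Slc1a3 1046 CPM in G and 1005 CPM in C. Summed markers of microglia reached at most 0.3 CPM, those of mural cells and fibroblasts 0.573 CPM and those of endothelium 2.15 CPM. The 3 markers of mature astrocytes summed to 175 to 180 CPM in G libraries and 282 to 340 CPM in C libraries, a sum made almost wholly of Aldh1l1 (means of 176 CPM in G and 311 CPM in C); Aqp4 averaged 1.85 CPM in G and 1.92 CPM in C, and Gjb6 was under 0.1 CPM in every library. In bulk RNA, fewer cells of a type and less RNA per cell cannot be told apart.

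Proteins that fold badly in the endoplasmic reticulum (ER) engage 3 sensors in its membrane. PERK, encoded by Eif2ak3, phosphorylates the initiation factor eIF2, which slows translation in general and raises that of the transcription factor ATF4. ATF4 drives genes of amino acid synthesis and import and, with CHOP (Ddit3), stress effectors; other kinases feed into the same step when amino acids or haem run short, which is why this arm is called the integrated stress response. IRE1, encoded by Ern1, splices the mRNA of Xbp1, and ATF6 is cut in the Golgi to release a transcription factor; these 2 arms raise ER chaperones and the machinery that removes misfolded proteins. ATF4 and the sensors are largely controlled after transcription, so the mRNA of a regulator does not measure its activity.

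Promoter stretches are shown first for 5 of the 8 members called between H and V in the C libraries, chosen because they hold an ER stress response element or an ATF4 site. The other 3, Pdia4, Shmt2 and Xbp1, held none of the elements searched. The ER stress response element is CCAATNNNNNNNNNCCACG, read on either strand, in which the CCAAT part is bound by NF-Y and the CCACG part by ATF6. RefSeq promoters of build GRCm38.p6 ran from 250 bases before to 50 bases after each annotated start and were matched to 38 of the 41 members, not to Atf6, Slc7a5 and Manf. Capitals mark the element, or in Slc7a11 the core of the ATF4 site, TGATGNAA. Each sequence is printed in the direction of its gene.

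Hspa5, chr2:34772010-34772058, plus strand: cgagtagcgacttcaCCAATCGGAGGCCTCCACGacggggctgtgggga
Dnajc3, chr14:118937812-118937860, plus strand: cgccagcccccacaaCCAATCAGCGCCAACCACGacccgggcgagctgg
Pdia6, chr12:17266476-17266524, plus strand: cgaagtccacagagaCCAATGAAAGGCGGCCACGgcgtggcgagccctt
Hsp90b1, chr10:86705518-86705671, minus strand: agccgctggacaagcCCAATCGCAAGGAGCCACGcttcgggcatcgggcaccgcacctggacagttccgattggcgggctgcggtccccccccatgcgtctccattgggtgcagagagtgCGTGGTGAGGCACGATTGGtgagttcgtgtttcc
Slc7a11, chr3:50443638-50443694, minus strand, before one of its annotated starts: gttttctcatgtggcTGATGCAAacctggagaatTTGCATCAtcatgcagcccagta

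The element was also found in 3 further members, shown for comparison because none of them was called between H and V in the C libraries. Here the whole site is printed on the strand that reads CCAAT first, with only the 2 fixed parts in capitals.

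Calr, within chr8:84846882-84847181, gene on the minus strand: CCAATgagggtcgaCCACG
Creld2, within chr15:88819396-88819695, gene on the plus strand: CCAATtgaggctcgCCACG
Syvn1, within chr19:6046326-6046625, gene on the plus strand: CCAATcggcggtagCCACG

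In Hspa5 the element began 65 bases before the start. Hsp90b1 held it in both orientations, with the second copy read on the other strand. It was found in 7 of the 38 members matched (18.4%) and in 0.137% of the 27025 genes with a RefSeq promoter. By promoter, the share was 0.119% of 32851. The ATF4 core was found in 8 members (21.1%), namely Asns, Atf3, Chac1, Fgf21, Herpud1, Nupr1, Slc7a11 and Trib3. It lay in 4.51% of the 27025 genes and in 3.97% of all promoters. Of 3 other elements searched on both strands, ERSE-II (ATTGG, any base, then CCACG) lay in Herpud1 and in 0.0365% of promoters, TGACGTCA in Ppp1r15a and in 1.79%, and TGACGTG in Hspa5 and in 2.01%. A match describes the letters in this window and does not show that a factor binds there. The members were chosen as stress regulators and their targets, so their shares beside those of all genes are a description and no test.

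**Figure D1:**
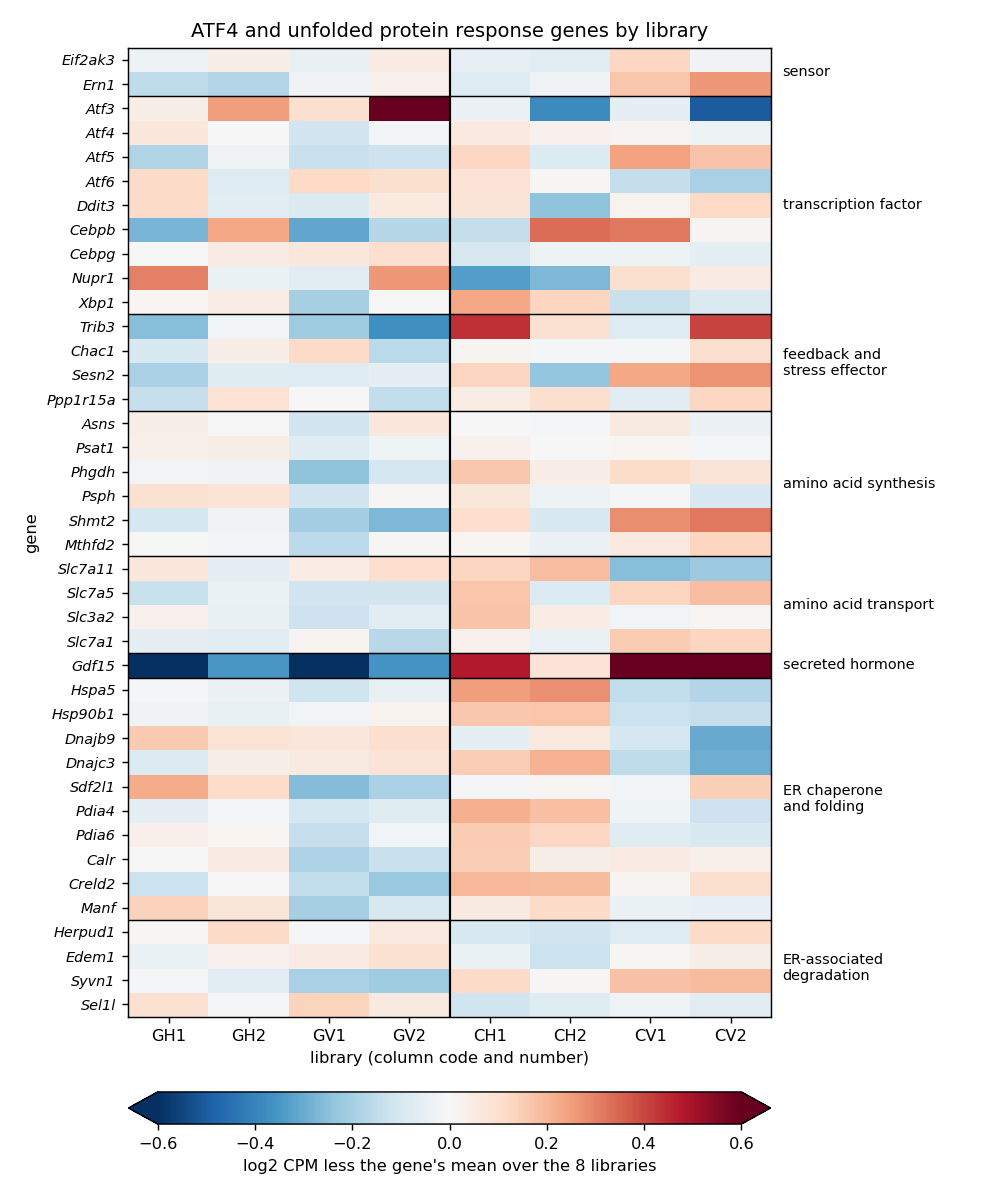
Each row is a gene, ordered by role, and each column a library; the colour is log2 CPM less the gene's mean over the 8 libraries, cut at the ends of the scale. Gdf15 is lower in the 4 G libraries than in the 4 C libraries, and Hspa5, Hsp90b1, Pdia4 and Pdia6 stand highest in the 2 CH libraries; Fgf21 is left out because it had 0 reads in 3 libraries.

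The largest called difference among the members was in Gdf15, and the role with the most calls in 1 direction of 1 comparison was ER chaperones. Gdf15 transcripts were lower in libraries coded G under both letters. Hspa5, Hsp90b1, Dnajc3, Pdia4 and Pdia6, which fold proteins in the ER, were higher in CH than in CV. No member was called between GH and GV. Atf4 itself, Ddit3 and the sensors Eif2ak3 and Ern1 were called in none of the 6 comparisons. In all, 21 of the 41 members were called in at least 1 comparison, and 20 were called in none. The matching share of all genes was not counted, and G against C under V alone called 25.0% of them. No excess of members can therefore be read from this count. The heat map by library shows these patterns together.

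Of the central regulators, Eif2ak3, Ern1, Atf4 and Ddit3 were called in no comparison. Eif2ak3 had 53.1 and 55.5 CPM in GH, 52.6 and 56.2 CPM in GV, 52.4 and 51.85 CPM in CH and 59.2 and 53.5 CPM in CV. The G and C libraries overlapped, with CH lowest and CV1 highest, and its lowest adjusted p over the 6 comparisons was 0.382. Ern1 had 5.39 and 5.30 CPM in GH, 5.91 and 6.09 CPM in GV, 5.68 and 5.90 CPM in CH and 6.73 and 7.17 CPM in CV, and its lowest adjusted p was 0.246. Its highest values were those of the CV libraries. Atf4 had 225 and 214.5 CPM in GH, 199 and 212.5 CPM in GV, 224 and 219 CPM in CH and 218 and 210.4 CPM in CV, a narrow range in which G and C overlapped. Between G and C it gave a log2 fold change of −0.03 (SE 0.042, adjusted p = 0.621), and its lowest adjusted p over the 6 comparisons was 0.508. Ddit3, the pro-apoptotic factor CHOP, had 19.1 and 16.8 CPM in GH, 16.6 and 18.35 CPM in GV, 18.6 and 14.9 CPM in CH and 17.9 and 19.1 CPM in CV. No order of the codes was visible in it, and its lowest adjusted p was 0.483.

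Among the other transcription factors, Atf6, Xbp1 and Atf5 were each called once. Atf6 had 77.3 and 67.7 CPM in GH, 77.7 and 76.4 CPM in GV, 75.9 and 71.8 CPM in CH and 64.7 and 62.4 CPM in CV. The CV libraries were the lowest, and Atf6 was higher in GV than in CV at a log2 fold change of 0.28 (SE 0.0735, adjusted p = 0.0155). Xbp1 had 46.5 and 47.6 CPM in GH, 40.2 and 46.05 CPM in GV, 54.2 and 50.5 CPM in CH and 42.0 and 43.4 CPM in CV. Both CH libraries lay above the other 6, and the call was for CH over CV (log2 fold change 0.29, SE 0.080, adjusted p = 0.0373). It held in 6 of 13 alternative fits. Atf5, an ATF4 relative whose translation is raised by the same route, had 12.7 and 14.2 CPM in GH, 13.2 and 13.2 CPM in GV, 15.7 and 13.6 CPM in CH and 17.0 and 16.2 CPM in CV. It was lower in GV than in CV (log2 fold change −0.33, SE 0.11, adjusted p = 0.0373), with GV at 13.2 CPM on average and CV at 16.6 CPM. This call held in 6 of 13 alternative fits. Atf3, a stress-induced repressor, was not called: it ranged from 3.59 to 5.31 CPM in G libraries and from 2.48 to 3.43 CPM in C libraries, groups that did not overlap, at a log2 fold change of 0.49 (SE 0.165, adjusted p = 0.0558). Cebpg, a partner of ATF4 in heterodimers, lay at 51.0 to 54.6 CPM in G libraries and 47.5 to 49.7 CPM in C libraries. Cebpb, a C/EBP factor that also pairs with ATF4, lay at 2.25 to 3.28 CPM in G libraries and 2.53 to 3.52 CPM in C libraries. Nupr1, a small stress-induced chromatin protein, lay at 6.68 to 8.64 CPM in G libraries and 5.58 to 7.48 CPM in C libraries. None of these 3 was called in any comparison.

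The comparison of G with C averaged over H and V asks what differs with receptor genotype as read from the codes. Of the 41 members, 9 were called, against 19.2% of all genes tested; 1 was higher, where 9.03% of all genes were called higher, and 8 were lower, where 10.2% were. The members' median log2 fold change was −0.06, and that of all genes −0.0077. The lower ones were Gdf15, Trib3, Phgdh, Shmt2, Slc7a5, Calr, Creld2 and Syvn1, and the higher one was Sel1l. They span amino acid metabolism, stress effectors, ER folding and ER-associated degradation. The 7SL RNA Rn7s1 was lower in G as well (log2 fold change −0.84, adjusted p = 2.86e-06), and Aldh1l1 had the lower levels in G given above; their part in these results was not tested. With non-coding genes left out of the fit, an alternative added after seeing the data, 12 members were called, among them these 9. Over all genes that fit called 3506, beside 3387 in the main fit. Fewer members were called without CH1, CV2, GH1 or GH2, fits in which calls over all genes fell as well.

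Gdf15 encodes a secreted stress hormone of the TGF-β superfamily, induced by ATF4 and CHOP, whose gene lies at chr8:70629393-70632470 in GRCm38. Its transcript had 6.06 and 7.21 CPM in GH, 5.65 and 7.19 CPM in GV, 12.8 and 9.73 CPM in CH and 13.95 and 16.4 CPM in CV. Every G library was below every C library. Over H and V, G was at 0.499 times the level of C (log2 fold change −1.004, SE 0.12, adjusted p = 0.00031). Among H libraries G over C gave a log2 fold change of −0.76 (SE 0.17, adjusted p = 0.0411), and among V libraries it gave a log2 fold change of −1.25 (SE 0.17, adjusted p = 0.000405). The difference between these 2 was not called (difference of log2 fold changes 0.48, SE 0.235, adjusted p = 0.232). The call over H and V held in all 13 alternatives, with adjusted p up to 0.00349, and the call among V libraries also held in all 13. The call among H libraries held in 7 of 13 alternatives and was lost, among others, without CH1, CV1, CV2, GH1 or GH2, with adjusted p up to 0.363. Fgf21, the other secreted hormone of the list, had 0 and 11 reads in GH, 0 and 0 in GV, 14 and 2 in CH, and 8 and 8 in CV. These counts are too few for a fold change.

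**Figure D2:**
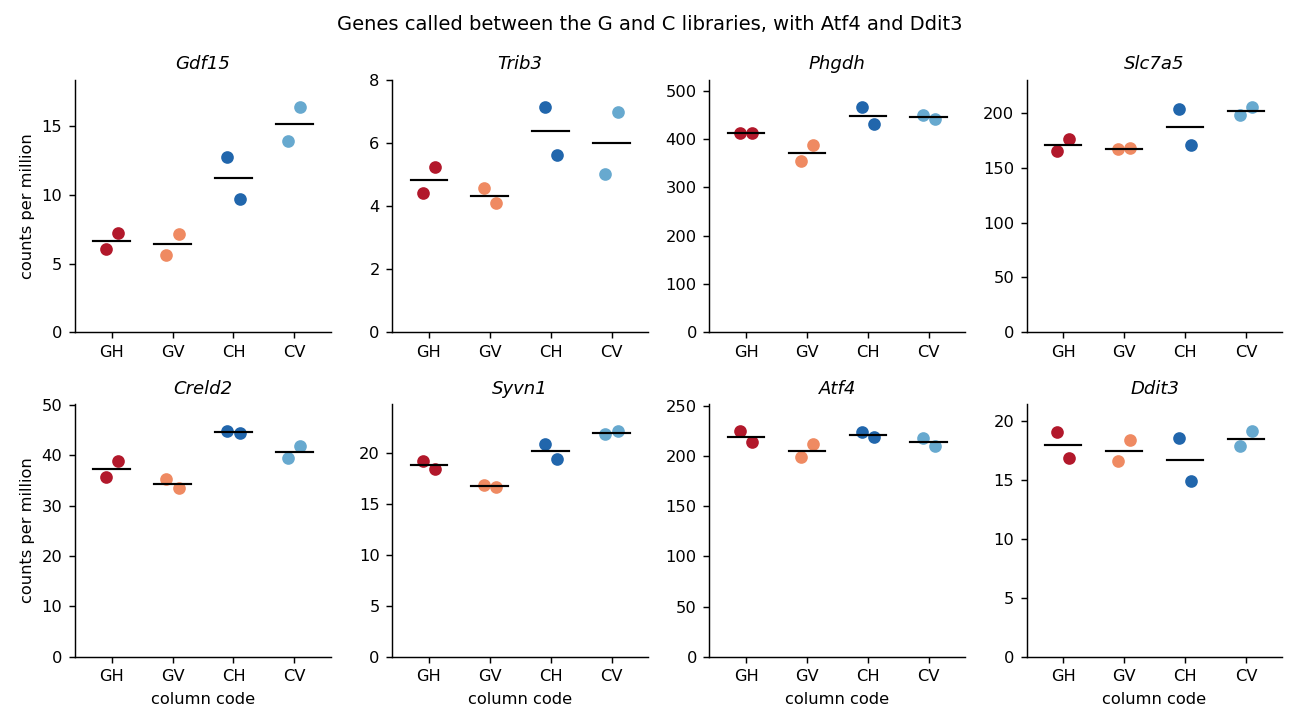
Points are single libraries and lines are means of the 2 libraries of a code, in CPM on axes that start at 0. The 4 G libraries of Gdf15 (5.65 to 7.21 CPM) lie below the 4 C libraries (9.73 to 16.4 CPM), whereas the codes overlap for Atf4 and Ddit3.

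Trib3, a pseudokinase that ATF4 and CHOP induce and that restrains them, had the next largest called change over H and V. It had 4.43 and 5.23 CPM in GH, 4.565 and 4.09 CPM in GV, 7.16 and 5.63 CPM in CH and 5.01 and 6.99 CPM in CV. The highest G library lay above the lowest C library, and G was lower at a log2 fold change of −0.44 (SE 0.14, adjusted p = 0.0419). This call was lost in 8 of 13 alternatives, with adjusted p up to 0.182. Sesn2, a leucine sensor that limits mTORC1, had 68.8 and 75.1 CPM in GH, 74.7 and 76.0 CPM in GV, 86.1 and 67.25 CPM in CH and 92.6 and 95.1 CPM in CV; CH2 lay below the G libraries and the other C libraries above them. It was called lower in GV than in CV (log2 fold change −0.32, SE 0.095, adjusted p = 0.0287) and was not called over H and V (log2 fold change −0.20, SE 0.068, adjusted p = 0.0527). The call of Sesn2 under V held in 8 of 13 alternatives. Chac1, which degrades glutathione, ranged from 8.33 to 10.1 CPM in G libraries and from 9.26 to 9.95 CPM in C libraries. Ppp1r15a, the phosphatase subunit that reverses eIF2 phosphorylation, ranged from 9.66 to 11.4 CPM in G libraries and from 10.2 to 11.7 CPM in C libraries. Neither was called in any comparison.

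In amino acid synthesis, 2 of 6 members were lower in G over H and V. Phgdh, the first enzyme of serine synthesis, had 414 and 412 CPM in GH, 354 and 388 CPM in GV, 467 and 430.5 CPM in CH and 451 and 441 CPM in CV. All G libraries were below all C libraries, at a log2 fold change of −0.19 (SE 0.044, adjusted p = 0.0101). Shmt2, which converts serine to glycine in mitochondria, had 116 and 123 CPM in GH, 109 and 104 CPM in GV, 134 and 117.5 CPM in CH and 152 and 156 CPM in CV. The CV libraries stood above the rest, and CH overlapped GH. G was lower over H and V (log2 fold change −0.30, SE 0.050, adjusted p = 0.00188) and lower in GV than in CV (log2 fold change −0.53, SE 0.070, adjusted p = 0.000391), calls that held in all 13 alternatives. Among H libraries it was not called (log2 fold change −0.07, SE 0.070, adjusted p = 0.752). Asns, Psat1, Psph and Mthfd2, which make asparagine, phosphoserine, serine and one-carbon units, were not called in any comparison. The level of Asns was 152 to 171 CPM in G libraries and 160.3 to 170.2 CPM in C libraries, and that of Psat1 425.5 to 458 CPM in G libraries and 445 to 454.5 CPM in C libraries. Psph lay at 46.2 to 53.3 CPM in G libraries and 47.0 to 52.4 CPM in C libraries, and Mthfd2 at 59.5 to 66.6 CPM in G libraries and 64.8 to 72.5 CPM in C libraries.

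The 4 transporters did not share 1 direction over H and V or among V libraries, while among H libraries all 4 had negative log2 fold changes and none was called. Slc7a5, the light chain of the large neutral amino acid transporter LAT1, had 165 and 176 CPM in GH, 167 and 168 CPM in GV, 203 and 171 CPM in CH and 198 and 206 CPM in CV. One C library, CH2, lay among the G libraries, and G was lower over H and V (log2 fold change −0.20, SE 0.054, adjusted p = 0.0217). Slc3a2, its heavy chain, ranged from 191 to 212 CPM in G libraries and from 205 to 234 CPM in C libraries and was not called. Slc7a1, a cationic amino acid transporter, had 105 and 104 CPM in GH, 110 and 97.0 CPM in GV, 111 and 106 CPM in CH and 121 and 119 CPM in CV. It was called once, as lower in GV than in CV (log2 fold change −0.21, SE 0.067, adjusted p = 0.0361), a call that held in 6 of 13 alternatives. Slc7a11, the cystine importer xCT, had 51.9 and 47.9 CPM in GH, 51.4 and 53.4 CPM in GV, 54.3 and 56.65 CPM in CH and 41.7 and 42.8 CPM in CV. The CV libraries were the lowest, and Slc7a11 was higher in GV than in CV (log2 fold change 0.31, SE 0.071, adjusted p = 0.00757).

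In ER folding and degradation, 3 genes were lower in G over H and V. Calr encodes calreticulin, a lectin chaperone that stores calcium, and had 488.5 and 505 CPM in GH, 429 and 444 CPM in GV, 540 and 499 CPM in CH and 504 and 498.5 CPM in CV. The GV libraries were the lowest and GH overlapped C, with a log2 fold change of −0.13 (SE 0.040, adjusted p = 0.0376). Creld2, an ER-resident protein induced by ER stress, had 35.7 and 39.0 CPM in GH, 35.3 and 33.5 CPM in GV, 44.8 and 44.6 CPM in CH and 39.45 and 41.8 CPM in CV, so that every G library was below every C library (log2 fold change −0.25, SE 0.053, adjusted p = 0.00738). Syvn1, the ubiquitin ligase HRD1 of ER-associated degradation, had 19.3 and 18.5 CPM in GH, 16.9 and 16.7 CPM in GV, 21.0 and 19.5 CPM in CH and 21.9 and 22.2 CPM in CV. All G libraries were below all C libraries, at a log2 fold change of −0.24 (SE 0.061, adjusted p = 0.0159), a call that held in 9 of 13 alternatives. Its partner Sel1l, the scaffold of the same complex, had 129.6 and 121 CPM in GH, 134 and 126 CPM in GV, 112 and 116 CPM in CH and 120.1 and 116.5 CPM in CV and went the other way, with every G library above every C library (log2 fold change 0.14, SE 0.0435, adjusted p = 0.0466). The calls of Calr and Sel1l were lost in 7 and 8 of 13 alternatives, with adjusted p up to 0.179 and 0.197.

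Compared within each letter, more members passed the test under V than under H, and so did more genes overall. Under H, 2 members were called, both lower in G, against 1.81% of all genes (0.759% higher and 1.05% lower); they were Gdf15 and Hspa5. Under V, 14 were called, 3 higher and 11 lower, against 25.0% of all genes (11.6% higher and 13.4% lower). The higher ones were Atf6, Slc7a11 and Dnajc3. The lower ones included Sdf2l1, an ER co-chaperone component with 12.75 and 13.35 CPM in GV and 15.1 and 16.9 CPM in CV (log2 fold change −0.30, SE 0.10, adjusted p = 0.0471), a call that held in 1 of 13 alternatives, with adjusted p up to 0.281. The other lower ones were Gdf15, Shmt2, Phgdh, Slc7a5, Slc7a1, Sesn2, Atf5, Calr, Creld2 and Syvn1. The call of Creld2 under V held in 4 of 13 alternatives. The members' median log2 fold change was −0.07 under H and −0.06 under V, and that of all genes 0.0025 under H and −0.015 under V. Fewer members were called under V without CV1, CV2, GH1, GV1 or GV2, fits in which calls over all genes fell as well. The same held under H without CH1, CH2, CV1, CV2, GH1 or GH2. The log2 fold change of Rn7s1 was −0.47 under H and −1.20 under V.

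**Figure D3:**
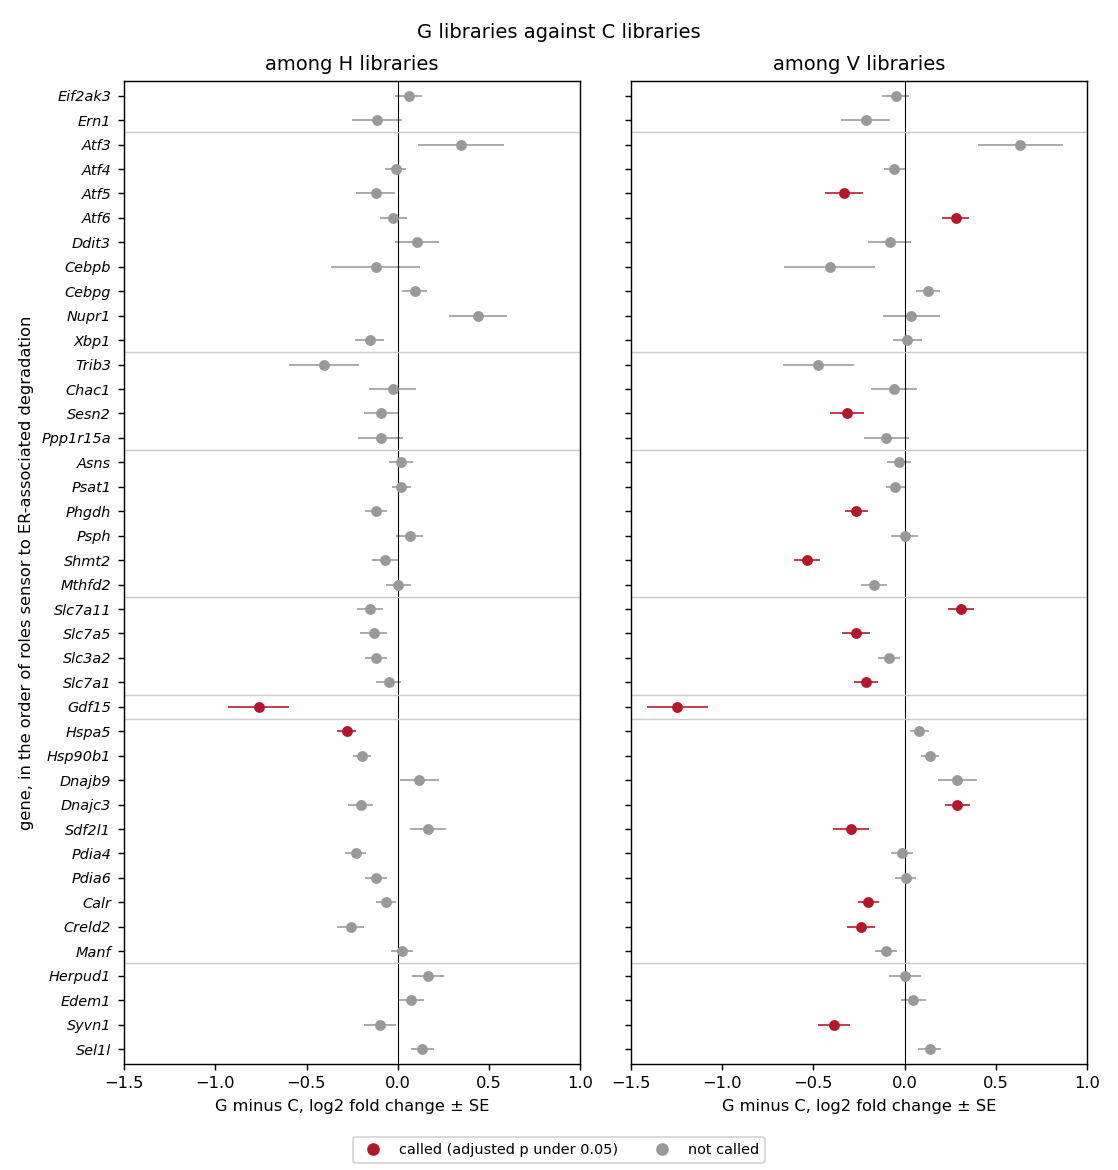
Points are log2 fold changes of G over C with their standard errors, among H libraries on the left and V libraries on the right, and red marks an adjusted p under 0.05. Gdf15 stands apart on the low side in both panels (−0.76 and −1.25), and Shmt2 (−0.53) is low among V libraries.

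The comparison of H with V among C libraries asks what differs in control cells between the 2 letters, which may stand for the lipoprotein preparations. ER chaperones led the calls. Of 10 members that fold proteins in the ER, 5 were higher in CH than in CV, none was lower, and 9 had a positive log2 fold change; their median was 0.21, beside −0.0078 for all genes. Over all members 8 were called, against 10.7% of all genes; 7 were higher, where 5.68% of all genes were, and 1 was lower, where 4.99% were. The other higher ones were Xbp1 and Slc7a11, and the lower one was Shmt2. Rn7s1 was not called between CH and CV (log2 fold change −0.05, adjusted p = 0.757), and Aldh1l1 averaged 292.5 CPM in CH and 330.0 CPM in CV. The 5 oligodendrocyte lineage markers summed to 499 CPM in CH and 579 CPM in CV, almost wholly from Olig2, with Sox10 at 0 CPM in both codes; the part of these genes in the results was not tested. The receptor gene S1pr1 was itself called higher in CH than in CV (log2 fold change 0.40, adjusted p = 0.0433), a call lost without CH1, CH2, CV2, GH1 or GH2 (adjusted p up to 0.314).

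Hspa5 encodes BiP, the main Hsp70 chaperone of the ER and the protein that holds the 3 sensors inactive. The gene lies at chr2:34772090-34776529, and its promoter element is shown above. It had 467 and 458 CPM in GH, 432 and 454.5 CPM in GV, 557 and 566 CPM in CH and 424 and 416 CPM in CV. Both CH libraries lay above the other 6 and both CV libraries below them, and CH was 1.34 times CV (log2 fold change 0.42, SE 0.053, adjusted p = 0.000986). This call held in all 13 alternatives, with adjusted p up to 0.0237. Between GH and GV the log2 fold change was 0.06 and was not called. GH was lower than CH at a log2 fold change of −0.28 (SE 0.053, adjusted p = 0.0204), a call lost without CH1, CH2, GH1 or GH2 (adjusted p up to 0.226).

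Hsp90b1 encodes GRP94, the Hsp90 of the ER, from chr10:86690841-86705444. It had 519.8 and 511 CPM in GH, 522 and 534 CPM in GV, 589 and 592 CPM in CH and 482 and 478 CPM in CV. As for Hspa5, CH was highest and CV lowest, with the 4 G libraries between them, and CH exceeded CV at a log2 fold change of 0.30 (SE 0.0505, adjusted p = 0.00473). Dnajc3, a co-chaperone of BiP also called p58IPK, lies at chr14:118937932-118981702 and had 85.4 and 92.4 CPM in GH, 93.7 and 95.4 CPM in GV, 100.1 and 104.5 CPM in CH and 81.2 and 73.8 CPM in CV. The same order held, and CH exceeded CV at a log2 fold change of 0.40 (SE 0.068, adjusted p = 0.00485). Dnajc3 was also higher in GV than in CV (log2 fold change 0.29, SE 0.068, adjusted p = 0.00931), a comparison that shares the CV libraries.

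The protein disulfide isomerases Pdia4 and Pdia6 form and rearrange disulfide bonds. Pdia4 had 168 and 173 CPM in GH, 162 and 166 CPM in GV, 203 and 198 CPM in CH and 172 and 160.2 CPM in CV, with the CH libraries above the rest, and CH exceeded CV at a log2 fold change of 0.27 (SE 0.058, adjusted p = 0.014). Pdia6 had 250.4 and 247 CPM in GH, 223 and 242.5 CPM in GV, 273 and 268 CPM in CH and 234 and 231 CPM in CV. Its CH libraries were again the highest, at a log2 fold change of 0.22 (SE 0.058, adjusted p = 0.0331), a call that held in 6 of 13 alternatives. The chaperones not called here were Calr, Creld2, Dnajb9, Manf and Sdf2l1. Dnajb9, a BiP co-chaperone and Xbp1 target, had 14.03 to 14.92 CPM in G libraries and 10.8 to 13.9 CPM in C libraries. Of the 7 members with the ER stress response element in the promoter window, 4 were called higher in CH, where 5.68% of all genes were. Calr, Creld2 and Syvn1 were not, and Pdia4 and Xbp1 were called higher without it. Outside the members, 13 genes with the element were tested, of which 1 was called higher and 3 lower. The 4 ER-associated degradation genes, Herpud1, Edem1, Syvn1 and Sel1l, all had negative log2 fold changes here (median −0.12) and none was called. Herpud1, which recruits that machinery, lay at 28.5 to 31.0 CPM in G libraries and 26.5 to 31.1 CPM in C libraries, and Edem1, which extracts misfolded glycoproteins, at 53.5 to 58.6 CPM in G libraries and 50.4 to 56.5 CPM in C libraries.

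Slc7a11, on chr3:50364936-50499087, was higher in CH than in CV (log2 fold change 0.39, SE 0.071, adjusted p = 0.00633), the 2 CV libraries being its lowest. Shmt2, on chr10:127517123-127522444, was the exception in direction, being lower in CH than in CV (log2 fold change −0.29, SE 0.070, adjusted p = 0.023). Fewer members were called without CV2, CH2 or CV1, fits in which calls over all genes fell as well. Hspa5 remained without CV2, and Hspa5 and Hsp90b1 remained without CH2. The log2 fold changes of the 8 members called between CH and CV kept their sign in each of those fits. Of all calls of members in the 6 comparisons, those that held with any 1 library left out were Gdf15 and Shmt2 for G against C over H and V and under V, Syvn1 under V, and Hspa5 here.

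**Figure D4:**
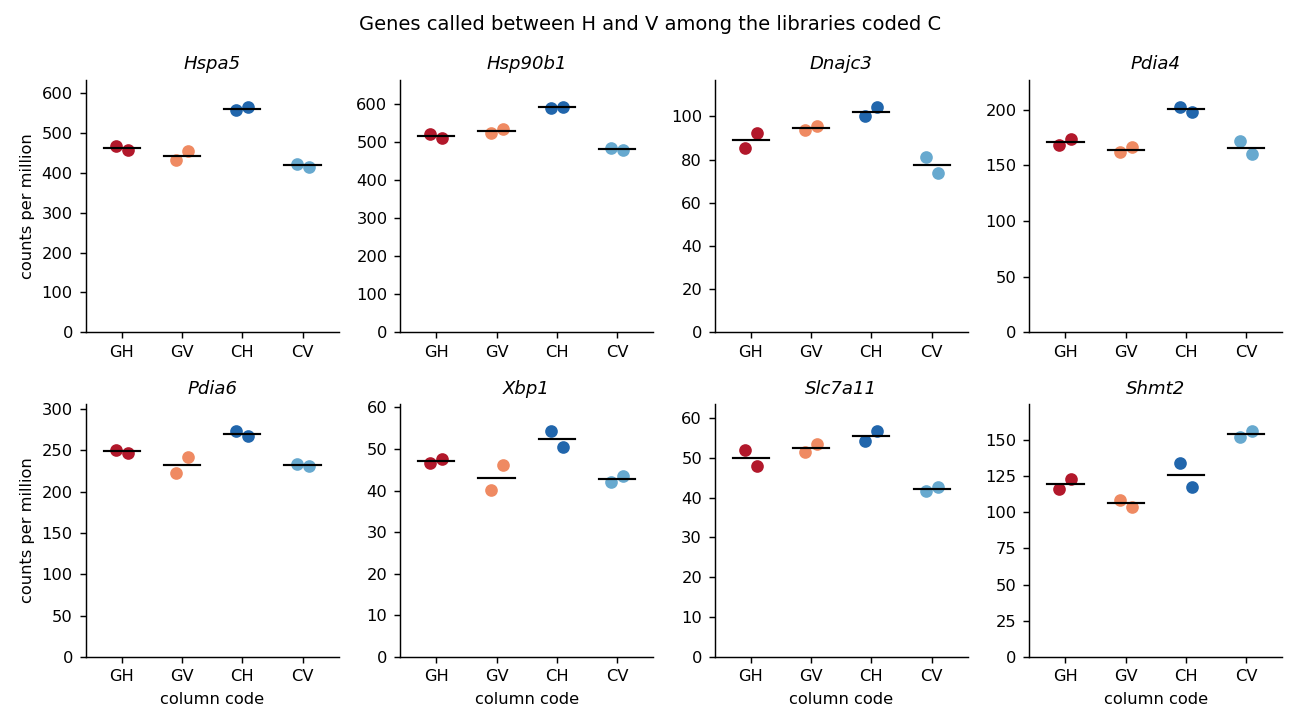
Points are single libraries and lines are means of the 2 libraries of a code, in CPM on axes that start at 0. For Hspa5 the CH libraries (557 and 566 CPM) lie above and the CV libraries (424 and 416 CPM) below the 4 G libraries, and for Shmt2 the CV libraries are highest (152 and 156 CPM).

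Among G libraries, no member was called between H and V in the main fit: 0 of 41, against 1.28% of all genes (1.14% higher and 0.136% lower). At an unadjusted p under 0.05 there were 6, beside 2607 of all 17644 genes. DESeq2 called 2 members, Calr and Manf, beside 579 of all genes. The fit with protein-coding genes alone called 2, Sdf2l1 and Manf, beside 434 of all genes in that fit. Manf, a secreted ER stress-induced neurotrophic factor, had 141 and 134 CPM in GH, 111 and 119.7 CPM in GV, 133 and 138 CPM in CH and 124 and 124 CPM in CV, with both GH libraries above both GV libraries (log2 fold change 0.25, SE 0.061, adjusted p = 0.0668 by edgeR). Sdf2l1 had 17.8 and 16.5 CPM in GH and 12.75 and 13.35 CPM in GV (log2 fold change 0.39, SE 0.0995, adjusted p = 0.0745). The members' median log2 fold change was 0.05, beside 0.0027 for all genes. Among all genes called here, 89.4% were higher in GH by edgeR and 73.6% by DESeq2. The small RNA Rn7s1 was higher in GH than in GV by 0.68 on the log2 scale.

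Whether the H to V difference itself depended on genotype was tested by the interaction, H minus V in G less H minus V in C. Of the members 5 were called, against 7.35% of all genes (3.93% higher and 3.41% lower). Hspa5, Hsp90b1, Dnajc3 and Slc7a11 had a smaller H minus V difference in G than in C. Hspa5 gave a difference of log2 fold changes of −0.36 (SE 0.075, adjusted p = 0.0191), and Hsp90b1 gave a difference of log2 fold changes of −0.33 (SE 0.071, adjusted p = 0.0214). Dnajc3 gave a difference of log2 fold changes of −0.49 (SE 0.0965, adjusted p = 0.0168), and Slc7a11 gave a difference of log2 fold changes of −0.46 (SE 0.10, adjusted p = 0.0225). Shmt2 differed the other way, at a difference of log2 fold changes of 0.46 (SE 0.099, adjusted p = 0.0213), with a log2 fold change of 0.17 for GH over GV and of −0.29 for CH over CV. Pdia4, Pdia6 and Xbp1 were called in C and not in the interaction, so by edgeR their H minus V differences were not shown to differ between G and C. The 5 calls rest on few libraries. All were lost without CH2, CV2, GH1 or GH2, fits in which calls over all genes fell as well. Hsp90b1, Slc7a11 and Shmt2 were also lost without CV1. With any 1 library left out, the differences kept their sign. They ran from −0.40 to −0.32 in Hspa5, −0.36 to −0.32 in Hsp90b1 and −0.56 to −0.42 in Dnajc3. Those of Slc7a11 ran from −0.54 to −0.41 and those of Shmt2 from 0.37 to 0.56. Among all genes called, 53.5% were higher in the main fit and 42% by DESeq2. DESeq2 called 7 members, these 5 and also Pdia4 and Atf6, beside 1821 of all genes.

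**Figure D5:**
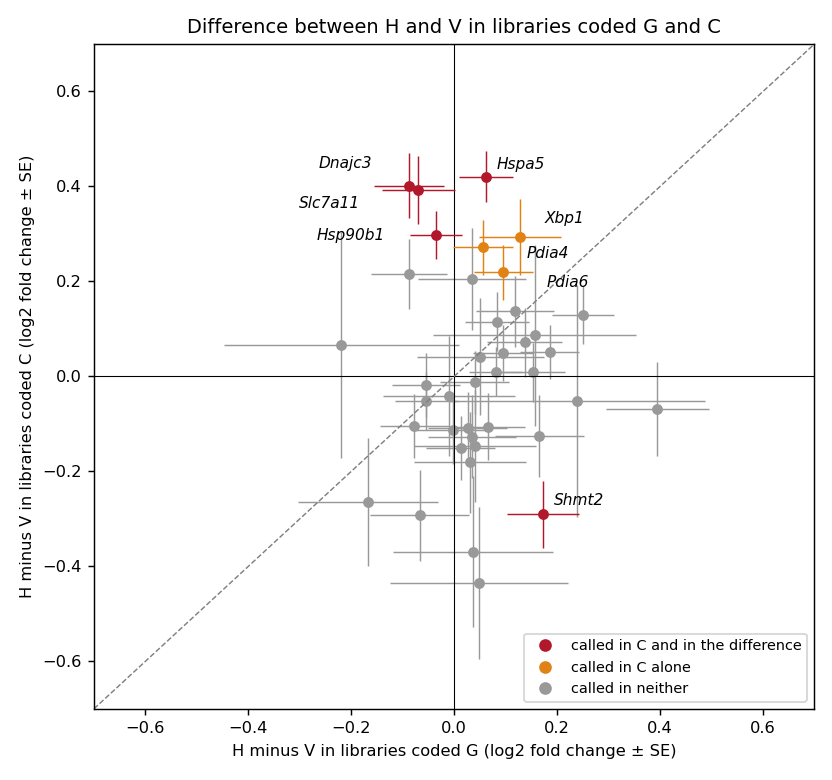
The log2 fold change of H over V in G libraries is on the horizontal axis and that in C libraries on the vertical axis, with standard errors; the dashed line marks equal values. Hspa5, Dnajc3, Slc7a11 and Hsp90b1 lie well above the line (0.06, −0.09, −0.07 and −0.04 in G, against 0.42, 0.40, 0.39 and 0.30 in C), and Shmt2 lies below it.

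The surrounding pathway was followed in 9 further lists, without the members themselves. Between G and C over H and V, aminoacyl-tRNA synthetases, which load amino acids onto tRNA and are ATF4 targets in part, had 7 genes lower and 1 higher of 21 tested (median −0.10), where 10.2% of all genes were called lower and 9.03% higher. The ER translocation and secretory list had 5 lower and 4 higher of 27, other ER chaperones 4 lower and 1 higher of 19, other sensors and eIF2 control 5 lower and 3 higher of 24, and cytosolic heat shock genes 4 lower and 2 higher of 15. Other ATF4 and CHOP targets had 2 lower and 2 higher of 19, other ER-associated degradation genes 2 higher of 16, mitochondrial chaperones and proteases 1 lower and 1 higher of 11, and other amino acid genes 1 higher of 14. The called genes with the largest changes were Gadd45b, a growth arrest gene, which was higher (log2 fold change 0.51, SE 0.11, adjusted p = 0.00778), Bag3, an Hsp70 co-chaperone, which was lower (log2 fold change −0.40, SE 0.11, adjusted p = 0.0222), and Vars, the valyl-tRNA synthetase, which was lower (log2 fold change −0.34, SE 0.062, adjusted p = 0.00302).

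Within the letters the same lists gave 2 calls under H by edgeR, where 1.81% of all genes were called. Of 19 other ATF4 and CHOP targets, Cebpd, a C/EBP transcription factor, was lower in GH than in CH (log2 fold change −0.61, SE 0.092, adjusted p = 0.00653). Of 15 heat shock genes, Cryab, a small heat shock protein, was higher (log2 fold change 0.34, SE 0.072, adjusted p = 0.0356). The remaining lists had no call under H. Under V, where 25.0% of all genes were called, the counts were 12 of 27 for translocation and secretion (6 higher, 6 lower), 10 of 24 for sensors and eIF2 control (3 higher, 7 lower), 9 of 19 for ER chaperones (4 higher, 5 lower), 7 of 19 for other ATF4 and CHOP targets (4 higher, 3 lower), 6 of 21 for aminoacyl-tRNA synthetases (1 higher, 5 lower) and 6 of 15 for heat shock (3 higher, 3 lower). Mitochondrial chaperones gave 4 of 11 (2 higher, 2 lower), ER-associated degradation 3 of 16, all higher, and amino acid genes 2 of 14, both lower. The largest were Bag3 (log2 fold change −0.65, SE 0.15, adjusted p = 0.00892), the heat shock gene Dnajb4 (log2 fold change 0.58, SE 0.0935, adjusted p = 0.00107) and Gadd45b (log2 fold change 0.54, SE 0.155, adjusted p = 0.0231).

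Between CH and CV, where 5.68% of all genes were called higher and 4.99% lower, the lists whose few called genes all had 1 direction were translocation and secretion, with 6 of 27 higher (median 0.14), cytosolic heat shock, with 6 of 15 higher (median 0.20), aminoacyl-tRNA synthetases and mitochondrial chaperones, with 3 of 21 and 3 of 11 higher, ER-associated degradation, with 2 of 16 higher, and amino acid genes, with 3 of 14 lower (median −0.19). Other ER chaperones had 4 higher and 1 lower of 19, other ATF4 and CHOP targets 4 higher and 1 lower of 19, and sensors and eIF2 control 3 higher and 2 lower of 24. The largest were Cebpd (log2 fold change 0.69, SE 0.093, adjusted p = 0.00139), Fkbp14, an ER prolyl isomerase (log2 fold change 0.62, SE 0.089, adjusted p = 0.00204), and Gadd45a (log2 fold change 0.62, SE 0.115, adjusted p = 0.00724), which were all higher in CH. Between GH and GV, where 1.28% of all genes were called, 3 of the 27 translocation and secretion genes were higher, namely Sec61b, a subunit of the protein channel (log2 fold change 0.45, SE 0.070, adjusted p = 0.0158), Spcs1, of signal peptidase (log2 fold change 0.36, SE 0.062, adjusted p = 0.0222), and Sec61g (log2 fold change 0.34, SE 0.070, adjusted p = 0.0386). No gene of the other 8 lists was called there by edgeR. DESeq2 called Ppib and Hspe1 among them, beside 579 of all genes. At an unadjusted p under 0.05 these lists ranged from 0 of 15 in heat shock to 6 of 19 in ER chaperones. Of all 17644 genes, 2607 were under that p.

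In the interaction, where 3.93% of all genes had positive and 3.41% negative calls, other ATF4 and CHOP targets had 2 positive and 4 negative calls of 19, translocation and secretion 1 and 4 of 27, other ER chaperones 2 and 2 of 19, sensors and eIF2 control 2 and 2 of 24, heat shock 0 and 3 of 15, and amino acid genes 1 and 0 of 14. ER-associated degradation and mitochondrial chaperones each had 1 negative call, and aminoacyl-tRNA synthetases had none by edgeR. Of the 21 synthetases, 5 were at an unadjusted p under 0.05, beside 4285 of all 17644 genes. DESeq2 called 4 of them, beside 1821 of all genes. The largest were Pmaip1, which encodes the BH3-only protein NOXA (difference of log2 fold changes −0.77, SE 0.15, adjusted p = 0.0148), Fkbp2, an ER prolyl isomerase (difference of log2 fold changes 0.73, SE 0.11, adjusted p = 0.00739), and Bbc3, which encodes PUMA (difference of log2 fold changes 0.72, SE 0.18, adjusted p = 0.0329).

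Reads of several members may be shared with neighbours. In RefSeq, Hspa5 overlaps Rabepk, Pdia6 overlaps Atp6v1c2, Shmt2 overlaps Ndufa4l2, Ddit3 overlaps Mbd6, Syvn1 overlaps Mrpl49, Atf5 overlaps Nup62 and Psph overlaps Cct6a, among others. The library kit marks strand, and whether the counting used it is not given in the sources used here, so these values are uncertain to that extent.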

How the data were processed

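RNA of 8 samples was sequenced after removal of ribosomal RNA with a kit that marks strand, per the labels' protocols. Tools named in the submitters' processing notes are HISAT2 2.1.0, StringTie 2.1.3b, bcl2fastq 2.20.0 and Trimmomatic, with the mouse build GRCm38 (mm10). The deposited table gives, per the file headers, a read count for each gene and library, which was used as it stands; how reads on overlapping genes or near-identical copies were counted is not given in the sources used here. The 16 columns of FPKM and TPM were not used.

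Columns were matched to genotype by their first letter, and no column was tied to a single sample. Counts were fitted with edgeR 4.0.16 in R 4.3.3 (filterByExpr, TMM factors, a mean for each of the 4 codes, quasi-likelihood F test, Benjamini-Hochberg adjustment over 17644 genes, threshold 0.05) in 6 comparisons; the script was tested on simulated data. Standard errors are the log2 fold change over the root of F. Comparisons that share a code share its libraries. With 39619305 to 45698186 counts per library and 2 libraries per code, precision is set by the spread between libraries more than by depth. Replicates of each code differed by more than sampling noise. Alternatives were size factors by RLE, no filter, DESeq2 1.42.0, the column number as a block, each library left out and, added after seeing the data, protein-coding genes alone.

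The members and lists were chosen with earlier results of these data known. Given in full were the 20 called members with the lowest adjusted p and the regulators Atf4, Atf6, Xbp1, Ddit3, Eif2ak3, Ern1 and Hspa5; of the lists, counts and the 3 called genes with the largest change per comparison. The small RNAs, other members' values and genes called by a single alternative were named after their values were seen. Promoters and positions are RefSeq's for GRCm38.p6, and figures were drawn with matplotlib 3.10.9.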

Additional observations from a re-analysis of the deposited data

Results flagged for a closer look

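In 6 of 82 groups of 4 libraries (each member among the G and among the C libraries), 1 library stood apart from the other 3 by Dixon's ratio, the gap to the nearest library over the whole range, which chance exceeds in about 1 group in 20. The groups mix H and V libraries. Among the G libraries, Atf6 was low in GH2 (ratio 0.875; 67.7 CPM against 76.4 to 77.7 CPM in the others), Mthfd2 was low in GV1 (0.861) and Fgf21 was detected in GH2 alone (ratio 1, from 11 reads). Among the C libraries, Sdf2l1 (0.842) and Herpud1 (0.842) were high in CV2, and Calr was high in CH1 (0.855; 540.0 CPM against 498.5 to 504 CPM in the others). The call of Calr over H and V was lost without CH1 and likewise without CV1, CV2, GH1, GH2 or GV1.

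The H minus V difference depended on genotype as coded in 5 members by the interaction test of edgeR. On the log2 scale, the difference in G less that in C was 0.46 for Shmt2, −0.46 for Slc7a11, −0.36 for Hspa5, −0.33 for Hsp90b1 and −0.49 for Dnajc3. Each was lost without CH2, CV2, GH1 or GH2.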

How the results depend on the processing

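With 2 libraries per code, leaving 1 out assumes that the lone library varies like those of the other codes. Members called then ranged from 2 to 10 (9 in the main fit) for G minus C over H and V, from 0 to 3 (2) under H, from 5 to 13 (14) under V, from 1 to 8 (8) for H minus V in C, from 0 to 1 (0) in G and from 0 to 6 (5) in the interaction. All genes called ranged from 1585 to 3391 (3387), from 45 to 415 (320), from 1950 to 4444 (4408), from 255 to 2169 (1883), from 8 to 843 (226) and from 56 to 1450 (1296) in the same order. For G minus C under H, members called were 4 with no filter and 4 by DESeq2, and all genes 552 and 483. For H minus V in G, all genes called were 575 with no filter, 579 by DESeq2 and 434 with protein-coding genes alone; members were 2 by DESeq2 and 2 with protein-coding genes alone. The share of calls that were higher was 89.4% there and 73.6% with no filter; in the interaction it was 53.5% and 41.7%. No pairing by number was seen over all genes tested (correlations of same-numbered deviations from −0.046 to 0.01). Such correlations cannot exclude that same-numbered libraries share a culture or batch. With the replicate block, members called were 6, 1, 13, 6, 0 and 5, and all genes 3080, 203, 4079, 1432, 137 and 873, in the same order. The calls of Gdf15 under H (adjusted p = 0.0593 by edgeR) and of Calr, Sel1l and Trib3 over H and V were among those lost. Of 572 alternative values of single genes, 421 kept direction and side of the threshold, 150 kept direction alone and 1 reversed: S1pr1, whose G minus C value ran from −0.0111 without CV2 to 0.1753 without CV1 (0.08 in the main fit). The cause of these changes was not tested beyond fewer libraries.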

Other observations

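Genes outside the members also carried the ER stress response element in their RefSeq promoter window, and they were looked at after the members' values were known. There were 30 such genes, of which 13 were tested. Between CH and CV, where 5.68% of all genes were called higher and 4.99% lower, 1 was called higher, Canx, which encodes the lectin chaperone calnexin and had 840 and 834 CPM in GH, 868 and 894.5 CPM in GV, 824 and 877 CPM in CH, and 732 and 704 CPM in CV (log2 fold change 0.24, adjusted p = 0.0151 by edgeR). Its CV libraries were the lowest, and its interaction was −0.32 (adjusted p = 0.028), while those of Pan2 (0.40, adjusted p = 0.0384) and Adcy3 (0.56, adjusted p = 0.0357) had the opposite sign. Called lower in CH were 3, namely Acacb, Pan2 and Adcy3, and the median log2 fold change of the 13 was −0.06.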
